A study of Mus musculus with 22 samples.

Results

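Keratins are the intermediate filament proteins of epithelial cells, and their transcripts were followed in mouse J1 embryonic stem (ES) cells and in embryoid bodies grown from them. Keratin genes were taken as all genes whose symbol is Krt followed by digits only. This gave 44 of the 19721 genes listed in at least 1 library, and 20 of them reached an FPKM (fragments per kilobase of transcript, scaled to the mapped fragments of the library) of at least 0.5 in 2 or more of the 22 libraries. Symbols that carry a letter after the digits were not analysed here.

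All groups were of the J1 line. Untreated ES cells gave 2 libraries. Embryoid bodies, aggregates in which ES cells differentiate, were sampled on days 4, 9, 12, 18 and 28 (D4 to D28). On each of these days 2 libraries came from bodies given the vehicle, 0.1% DMSO, 1 from bodies given 10 nM TBBPA and 1 from bodies given 100 nM TBBPA. TBBPA is tetrabromobisphenol A, a brominated flame retardant, and the study asked how it alters gene expression as the bodies develop. J1 is a single established line, embryoid bodies mix many cell types, and each dose had 1 library a day. The 2 TBBPA libraries of a day were therefore set as 1 group against the DMSO pair, and a dose at 1 day has no replicate of its own. Nothing in the labels ties libraries to separate cultures. The p-values therefore reflect the spread among these libraries alone, which may be technical.

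Total expected counts were 18158583 to 18998141 per library. The 2 ES libraries differed from each other more than any DMSO pair did, with a mean chi-square per gene of 21.2 against 1.61 to 3.25 for the DMSO pairs. On a given day, the 2 TBBPA libraries differed by 3.14 to 7.66 on the same measure. All 6 ES cell markers examined fell from ES cells to D4, a step in which 30.3% of all genes tested were called lower. Their summed FPKM was 2237 to 2363 in the ES libraries and 861 to 898 in the D4 DMSO libraries.

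A keratin filament is built from pairs of 1 type I and 1 type II protein, so an epithelial cell makes members of both types. Simple, single-layered epithelia use Krt8 with Krt18, often joined by Krt7, Krt19 or Krt20. The basal layer of stratified epithelia uses Krt5 with Krt14 and Krt15, the layers above it in epidermis use Krt1 with Krt10, and those of oral and oesophageal mucosa use Krt4 with Krt13. Krt16 and Krt17 are switched on in wounded or activated epidermis and in skin appendages, and Krt12 is the keratin of the corneal surface. The filaments anchor at desmosomes, which join cells, and at hemidesmosomes, which hold basal cells to the matrix. In early embryos Krt8 and Krt18 are among the first intermediate filament genes expressed, in the trophectoderm and extra-embryonic endoderm.

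By these known roles, 8 members were classed as simple keratins (7 above the FPKM minimum), 6 as basal and activated stratified keratins (6), 6 as suprabasal epidermal keratins (3), 7 as mucosal and corneal keratins (3), 7 as keratins of the hair follicle and inner root sheath (1) and 9 as hair shaft keratins (0). Krt88 was not classed. The minimum fell between Krt75, with a second-highest FPKM of 0.53, and Krt78, with a second-highest FPKM of 0.41. The 24 members under the minimum had at most 0.63 FPKM and 42 expected counts in any library. Of all members, 22 had enough counts to be tested in the fits by step and by day. These were the 20 above the minimum together with Krt78 and Krt222.

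The genes form 2 groups in the mouse genome. In the RefSeq gene order, 22 members lie on chromosome 11, 11 of them above the minimum, and 22 on chromosome 15, with 9 above the minimum. Type I genes lie on chromosome 11 and type II genes on chromosome 15, with the exception of the type I gene Krt18, which sits next to its type II partner Krt8. Krt13, Krt15 and Krt19 are consecutive, as are Krt14, Krt16, Krt17 and Krt42. Reads from near-identical stretches of Krt14, Krt16, Krt17 and Krt42 could have been split between these genes by the counting, so their separate values are uncertain.

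The sequences of 3 gene starts are shown because the results turn on these members: Krt18 had the highest FPKM of any keratin, Krt7 was lower with TBBPA at 4 of 5 days, and Krt13 was higher with TBBPA at D28. Each is the 250 bases before an annotated start, from RefSeq (build GRCm38.p6), at chr15:102027966-102028215 on the plus strand for Krt18, chr15:101412153-101412402 on the plus strand for Krt7 and chr11:100120578-100120827 on the minus strand for 1 of the 2 annotated starts of Krt13. Capitals mark matches, on either strand, to GGGCGG (the GC box), GCCNNNGGC (an AP-2 type motif) and TGANTCA (an AP-1 type motif).
Krt18: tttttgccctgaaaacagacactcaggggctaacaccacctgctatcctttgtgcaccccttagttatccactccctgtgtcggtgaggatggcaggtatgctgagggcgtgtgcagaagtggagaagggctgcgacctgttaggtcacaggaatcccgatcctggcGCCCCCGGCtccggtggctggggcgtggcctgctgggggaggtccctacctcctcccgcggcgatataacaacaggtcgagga
Krt7: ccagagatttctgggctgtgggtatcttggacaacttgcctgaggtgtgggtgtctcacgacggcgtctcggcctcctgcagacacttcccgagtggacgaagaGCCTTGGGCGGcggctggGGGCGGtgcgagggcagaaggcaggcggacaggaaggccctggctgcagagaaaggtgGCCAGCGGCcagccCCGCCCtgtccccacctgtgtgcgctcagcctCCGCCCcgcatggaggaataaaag
Krt13: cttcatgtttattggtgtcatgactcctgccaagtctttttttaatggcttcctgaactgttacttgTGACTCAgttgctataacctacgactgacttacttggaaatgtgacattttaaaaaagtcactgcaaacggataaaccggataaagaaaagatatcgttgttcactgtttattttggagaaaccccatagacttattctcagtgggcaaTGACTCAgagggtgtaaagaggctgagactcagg

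The Krt7 window held 4 GC boxes, at 141, 128, 56 and 24 bases before the start, and the one at 141 overlaps an AP-2 type match that begins at 146. The Krt13 window held AP-1 type matches at 183 and 34 bases before the start, and the Krt18 window a single AP-2 type match at 83. Promoter windows were at hand for 13 of the 20 keratins above the minimum, in 14 windows. Of these 14, 2 held GGGCGG (Krt7 and Krt75), against 32.7% of 32851 windows of all genes. GCCNNNGGC was in 3 of the 14 (Krt7, Krt18 and Krt42) against 13.7% of all windows, and TGANTCA in 2 (both of Krt13) against 6.75%. TATAAA was in 3 (Krt10, Krt12 and Krt20) against 12.4%, and AACCGGTT, a grainyhead-like motif, in 0 against 0.116%. A match says only that these letters are present.

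The keratin transcripts of untreated and DMSO libraries passed from a low, mixed set in ES cells to an almost pure simple set at D4 to D12, and to a simple and stratified mixture at D28. The summed FPKM of all keratins was 54.3 to 63.2 in the ES libraries, 757 to 782 in the D4 DMSO libraries, 1032 to 1049 at D9, 888 to 923 at D12, 713 to 724 at D18 and 1454 to 1487 at D28. Simple keratins made up 99.1% to 99.2% of this sum at D4, 99.4% at D9 and 99.1% at D12. Their share was 89.6% to 90.1% at D18 and 58.5% to 58.9% at D28. The basal and activated stratified class held 0.337% to 0.340% at D9, 9.27% to 9.65% at D18 and 30.8% to 30.9% at D28. The mucosal and corneal class reached 8.27% to 8.64% and the suprabasal class 1.89% to 1.96% at D28. Krt8 and Krt18 alone held 95.0% to 95.2% of the sum at D4. In bulk RNA of this kind, fewer cells of a type and less RNA per cell cannot be told apart.

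**Figure D1:**
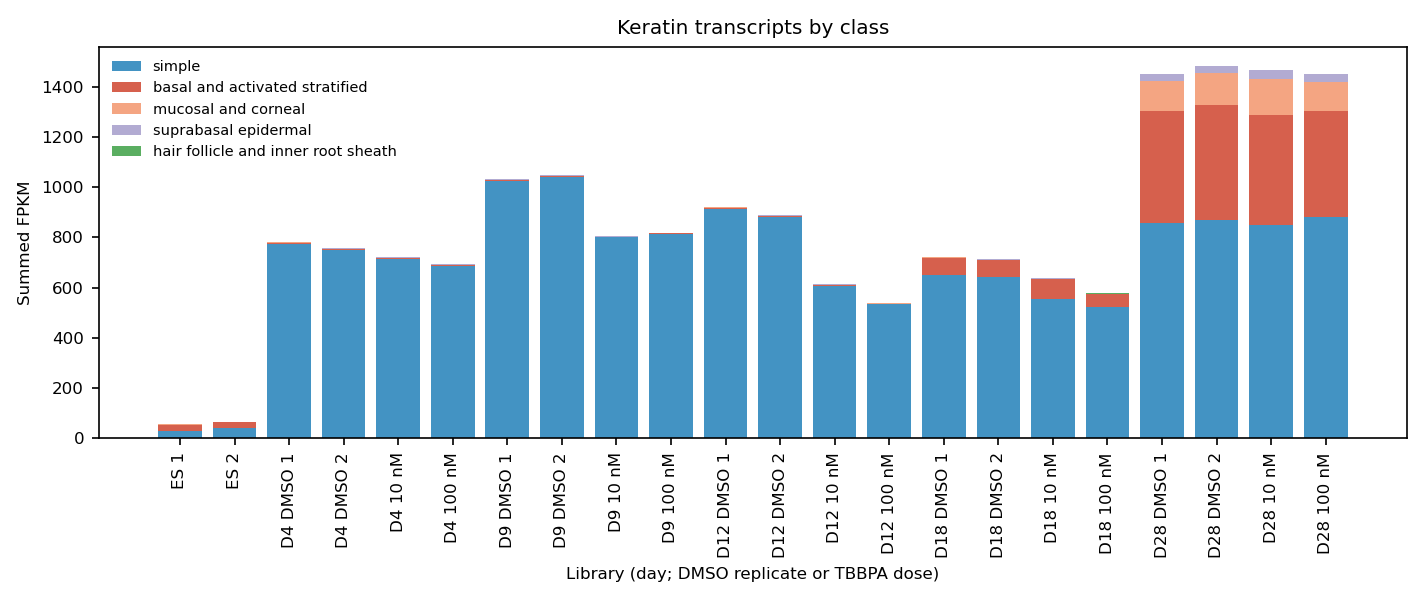
Summed FPKM of the keratin genes in each of the 22 libraries, stacked by class, with the day and the DMSO replicate or TBBPA dose on the horizontal axis (hair shaft and unclassed keratins, each under 0.5 FPKM in all, are left out). Simple keratins fill nearly all of the D4, D9 and D12 bars, and the stratified classes appear at D18 and D28.

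From ES cells to D4, 13 of 22 keratins passed the test, 9 higher and 4 lower, against 62.3% of all genes tested (31.9% higher and 30.3% lower). The largest well-counted rises were those of the simple pair. Krt18 stood at 8.19 and 14.16 FPKM in the ES libraries and at 558.65 and 531.87 FPKM in the D4 DMSO libraries. Krt8 stood at 13.38 and 18.61 FPKM in ES cells and at 185.70 and 187.35 FPKM at D4. For both genes the groups lay far apart. The rise was 47.7-fold for Krt18 (log2 5.58 ± 0.17 SE, n = 2 and 2, edgeR with Benjamini-Hochberg adjustment, adjusted p = 7.67e-10) and 11.4-fold for Krt8 (log2 3.51 ± 0.11, adjusted p = 1.95e-11 by the same edgeR fit). Krt19 (log2 2.57), Krt80 (2.25), Krt20 (1.995) and Krt7 (1.74) rose as well, each in the simple class.

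Krt12, the corneal keratin, had FPKM of 0 and 0.08 in ES cells and 1.70 and 1.10 at D4, and fell back to 0.04 and 0.12 at D9. It was above 0.20 FPKM at no other day, and the D4 TBBPA libraries held 1.09 and 1.50 FPKM. Its rise to D4 (log2 5.31 ± 0.64) and its fall to D9 (log2 -4.25 ± 0.54) both passed. Krt1 had 0 counts in both ES libraries and 2 and 4 counts at D4. This is at least 1.99-fold higher by a floor of 3 counts over the group, and the call was lost in limma and without the second D4 DMSO library. Krt78 also passed (log2 3.62 ± 1.09) on few counts.

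Krt42 was the leading keratin of the first ES library. It stood at 19.29 and 15.09 FPKM in ES cells and at 0.28 and 0.60 FPKM at D4, and it stayed at 1.11 FPKM or less in every later library. The fall to D4 was 39.6-fold (log2 -5.31 ± 0.25, edgeR adjusted p = 2.66e-10). Krt17 stood at 4.59 and 6.39 FPKM in ES cells and at 1.87 and 2.27 FPKM at D4 (log2 -1.43 ± 0.19). Krt16 fell too, by 2.10 on the log2 scale. Krt13 went from 7 and 6 counts in ES cells to 0 in both D4 DMSO libraries, at least 4.36-fold lower by the same floor. The basal and activated class, to which Krt42, Krt17 and Krt16 belong, held 37.0% to 46.2% of the ES keratin sum. Krt42 made up most of this, 19.29 of 25.09 and 15.09 of 23.38 FPKM. The basal keratins Krt5, Krt14 and Krt15 ranked no higher than 12 among all keratins in either ES library.

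**Figure D2:**
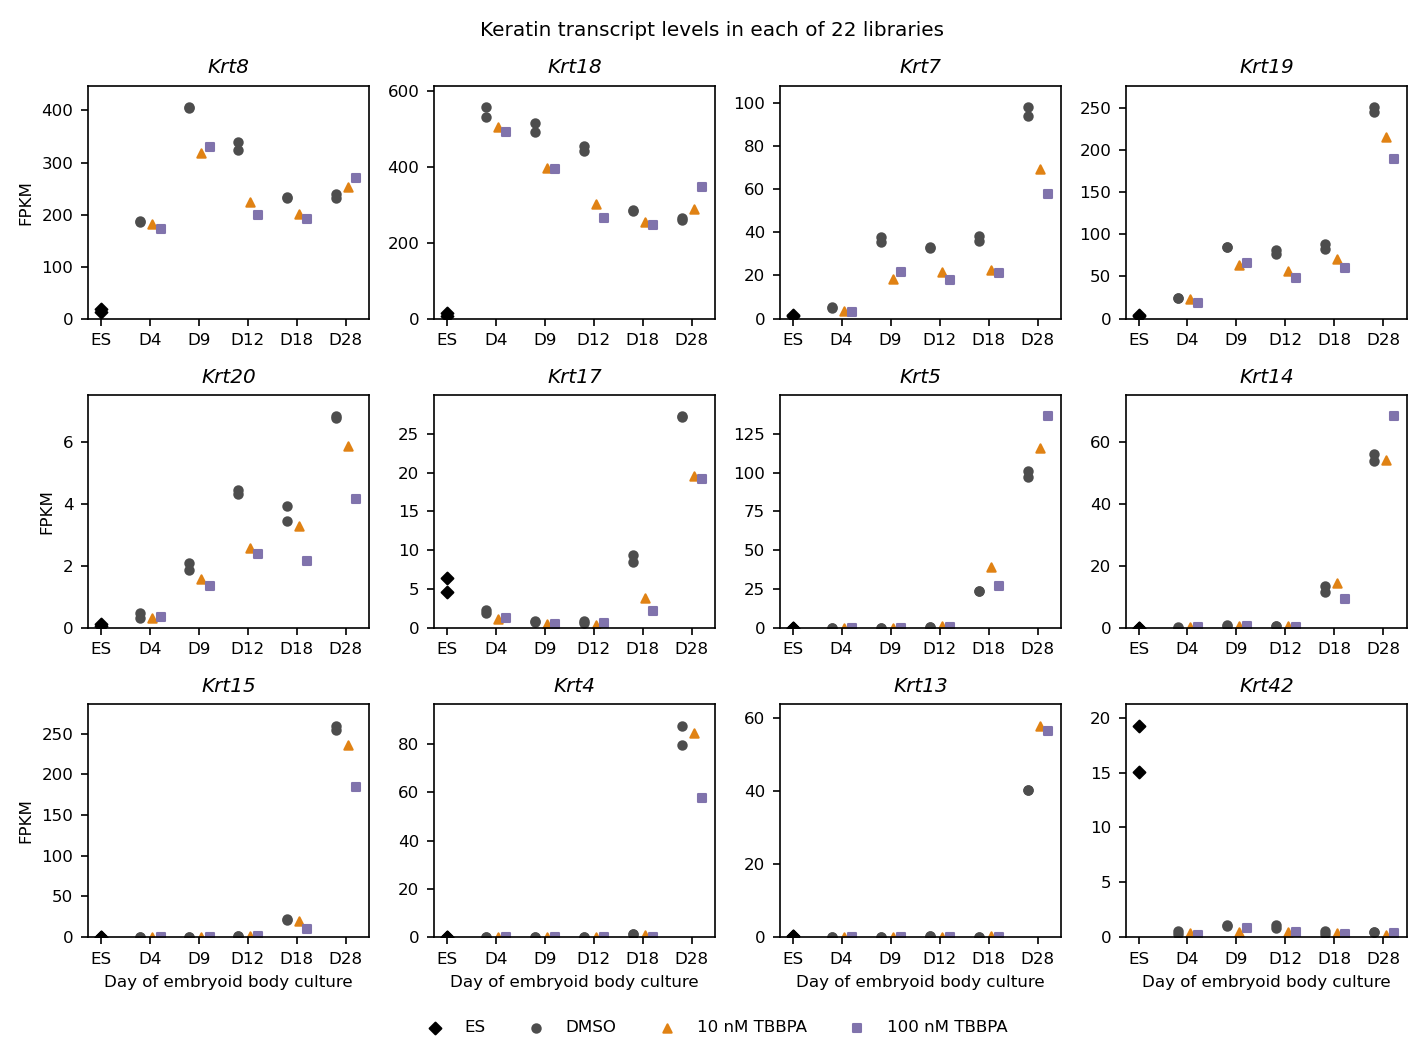
FPKM of 12 keratins in every library, by day, with ES libraries as diamonds, DMSO as circles, 10 nM TBBPA as triangles and 100 nM TBBPA as squares; each panel has its own linear axis from 0. Krt8 was highest at D9 and Krt18 at D4, Krt42 was high in the ES libraries alone, and the other 9 were highest at D28.

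From D4 to D9, 11 of 22 keratins passed, 8 higher and 3 lower, against 60.8% of all genes (31.9% higher, 28.9% lower). Krt7 stood at 5.04 and 5.20 FPKM in the D4 DMSO libraries and at 37.92 and 35.44 FPKM at D9, a 6.49-fold rise (log2 2.70 ± 0.10). Krt14 (log2 2.45), Krt20 (2.14), Krt15 (1.76), Krt19 (1.69), Krt42 (1.14), Krt8 (0.98) and Krt10 (0.71) also rose. Krt14 and Krt15 were still at 0.80 FPKM or less at D9. The Krt15 call was lost without the first D4 DMSO library and the Krt42 call without that library or the second D9 DMSO library. Beside Krt12, Krt80 and Krt17 fell, by 1.49 and 1.44 on the log2 scale. Scaling by library size alone moved the median of all genes in this step by 0.14 on the log2 scale, and no keratin call of the step changed with it.

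The step from D9 to D12 was the quietest for the family. There 5 of 22 keratins passed, 4 higher and 1 lower, against 33.1% of all genes (17.5% higher, 15.6% lower). Krt5, the type II keratin of basal cells, went from 0.02 and 0.18 FPKM to 0.48 and 0.61 FPKM (log2 2.40 ± 0.43). Krt15 (log2 1.17) and Krt20 (log2 1.09) rose. Krt13 went from 0 counts in both libraries to 6 counts in each, at least 4-fold higher. Krt8 fell by 0.35 ± 0.09, a call lost in limma and without any 1 of the 4 DMSO libraries of these days.

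At D18 the basal keratins appeared together. From D12 to D18, 13 of 22 keratins passed, 10 higher and 3 lower, against 37.7% of all genes (20.7% higher, 17.1% lower). Krt5 stood at 23.65 and 23.47 FPKM at D18, 41.7-fold above D12 (log2 5.38 ± 0.15). Its partner Krt14 went from 0.46 and 0.76 FPKM to 13.42 and 11.50 FPKM (log2 4.30 ± 0.18). Krt15, another type I keratin of basal cells, went from 1.20 and 1.06 FPKM to 21.95 and 21.28 FPKM (log2 4.21 ± 0.13). In each of these 3 genes both D18 DMSO libraries stood far above both D12 ones. Krt17 (log2 3.41), Krt80 (1.34) and Krt16 (1.32) rose. Krt4, the mucosal type II keratin, went from 2 and 1 counts to 47 and 45 counts. Krt75, Krt23 and Krt1 passed on small counts, by 3.57, 1.71 and 1.69 on the log2 scale, and each of these calls was lost in DESeq2. Krt18 and Krt8 fell by 0.69 and 0.55, and Krt42 by 1.24. The calls of Krt1, Krt16, Krt23, Krt42 and Krt75 were each lost without 2 to 4 of the single DMSO libraries of these days. For Krt1 and Krt16 they were lost without D12 library 1, D12 library 2 or D18 library 2, and for Krt1 also without D18 library 1. For Krt23 they were lost without D12 library 1, D12 library 2 or D18 library 1, for Krt42 without D12 library 1 or D18 library 2, and for Krt75 without the second library of either day.

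From D18 to D28, 17 of 22 keratins rose and 0 fell, against 24.9% of all genes higher and 28.1% lower (53% called). The median log2 change of the 22 was 2.085, beside -0.03 over all genes tested. The same count of 17 was found without each of the 4 libraries in turn. Members with few counts before D28, such as Krt1, Krt13, Krt75 and Krt77, were tested because of their D28 counts. They could hardly fall in this step, so the count and the median were in part set by the filter. The mucosal pair had the largest changes among members with counts at both days. Krt13 went from 0.10 and 0.13 FPKM to 40.18 and 40.19 FPKM (log2 8.40 ± 0.19, edgeR adjusted p = 2.60e-11), and Krt4 from 1.18 and 1.12 FPKM to 79.69 and 87.71 FPKM (log2 6.15 ± 0.16). Both genes passed from barely listed to the range of the basal keratins. The D18 level of Krt13 rested on few counts, and its log2 change was 5.21 to 8.60 over the alternatives, so the size of its rise is uncertain.

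The epidermal suprabasal pair followed. Krt1 went from 0.20 and 0.17 FPKM to 8.51 and 8.83 FPKM (log2 5.50 ± 0.22), and Krt10 from 2.97 and 2.44 FPKM to 18.21 and 17.49 FPKM (log2 2.61 ± 0.13). Krt77, a suprabasal keratin of type II, had 0 counts in both D18 libraries and 52 and 55 at D28, at least 34.8-fold higher. Krt1 was thus at 0.398 to 0.505 times the FPKM of Krt10 in the 4 D28 libraries.

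Among basal and activated keratins, Krt15 reached 254.70 and 259.86 FPKM at D28 (log2 3.54 ± 0.08), the highest FPKM of any stratified keratin in the series. Krt5 reached 97.37 and 101.33 FPKM (log2 2.05 ± 0.09) and Krt14 53.94 and 56.26 FPKM (log2 2.12 ± 0.11). Krt16 rose from 0.88 and 1.13 FPKM to 14.81 and 14.55 FPKM (log2 3.83 ± 0.24), and Krt17 from 9.43 and 8.45 to 27.23 and 27.15 FPKM (log2 1.58 ± 0.14). All 5 were higher in both D28 DMSO libraries than in either D18 one. The order of the basal keratins at D28 by FPKM was Krt15, Krt5, Krt14, Krt17 and Krt16 in both DMSO libraries, and no neighbours in that order overlapped.

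The simple keratins split at this last step. Krt19 reached 250.58 and 244.96 FPKM (log2 1.50 ± 0.08), Krt7 93.98 and 97.94 FPKM (log2 1.34 ± 0.08) and Krt20 6.77 and 6.82 FPKM (log2 0.85 ± 0.15). Krt23 (log2 3.49) and Krt80 (log2 3.16) also rose. Krt8 stood at 233.89 and 230.96 FPKM at D18 and at 231.69 and 239.24 FPKM at D28 (log2 -0.01 ± 0.09), and Krt18 at 284.94 and 286.62 and then 260.64 and 265.78 FPKM (log2 -0.15 ± 0.13). Neither passed. At D28 the FPKM of Krt8, Krt15, Krt18 and Krt19 lay between 231.69 and 265.78 in the DMSO libraries, in the order Krt18, Krt15, Krt19 and Krt8 in both. The ranges of these neighbours did not overlap, and the differences between them were not tested. Krt78 rose by 3.63 and Krt75, a keratin of the hair follicle companion layer, by 1.99, to 0.45 and 0.55 FPKM. The Krt75 call was lost in DESeq2.

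In all, 16 of the 20 keratins above the minimum had their highest control level at D28, Krt12 and Krt18 at D4, Krt8 at D9 and Krt42 in ES cells. Krt1, Krt13, Krt75 and Krt77 passed the minimum through D28 libraries alone, and Krt12 through D4 libraries alone. Their place in this count was therefore set by the minimum. The share of all genes with their highest control level at D28 was not taken.

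The balance of the 2 filament types was also taken from the FPKM. The ratio of summed type II to summed type I FPKM was 0.327 to 0.350 in the 4 D4 libraries, 0.724 to 0.759 at D9, 0.676 to 0.678 at D12, 0.694 to 0.718 at D18 and 0.559 to 0.592 at D28. Krt8 was above Krt18 in ES cells (ratio 1.31 to 1.63) and below it in every embryoid body library, at 0.332 to 0.359 of its FPKM on D4 and 0.733 to 0.900 on the other days. At D12 the ratio of summed type II to summed type I FPKM was the same to within 0.002 in all 4 libraries. The keratin sum nevertheless differed between DMSO and TBBPA. Krt5 over Krt14 at D18 was 1.762 and 2.041 with DMSO, 2.69 at 10 nM and 2.861 at 100 nM TBBPA. At D28 it was 1.805 and 1.801 with DMSO, 2.133 at 10 nM and 1.993 at 100 nM. Both TBBPA libraries thus lay above the DMSO pair on both days, a difference that was not tested.

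**Figure D3:**
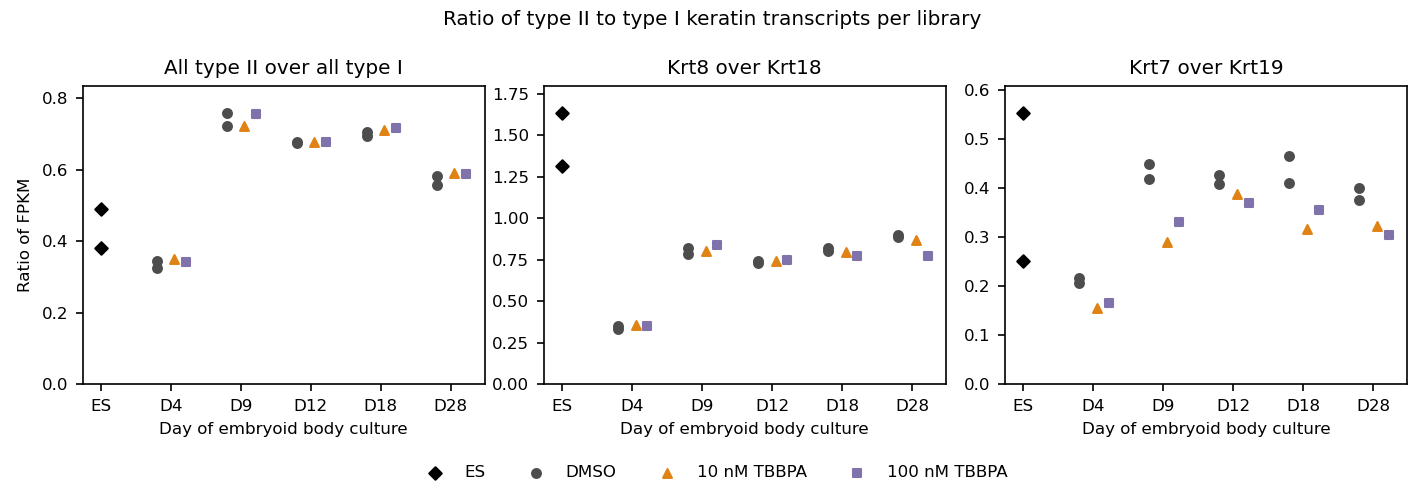
Ratio of FPKM of type II to type I keratins in each library by day: all members, Krt8 over Krt18 and Krt7 over Krt19. DMSO and TBBPA libraries overlap in the first 2 panels on D9, Krt8 over Krt18 was higher in both TBBPA libraries at D12 and lower in both at D18 and D28, type II over type I was higher in both at D18 and D28, and Krt7 over Krt19 was lower in both TBBPA libraries than in both DMSO libraries on all 5 days.

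With TBBPA, the simple keratins were the members that most often passed the test, and nearly all calls were lower. The simple class also had the most members above the FPKM minimum, 7 of 20, and the keratins with the most counts. Most stratified and mucosal keratins had few counts before D18, so the classes were not equally open to a call. At D4, 0 of 22 keratins passed, against 0.458% of all genes (0.0855% higher, 0.372% lower). There the unadjusted p was under 0.05 for 2 keratins and for 10.3% of all genes, and DESeq2 called 1 keratin. At D9, 1 was lower and 0 higher, against 2.34% of all genes (1.37% higher, 0.964% lower). At D12, 6 were lower and 0 higher, against 21.1% (11.9% higher, 9.19% lower). At D18, 4 were lower and 0 higher, against 10.5% (5.96% higher, 4.56% lower). At D28, 1 was lower and 1 higher, against 7.09% (3.65% higher, 3.44% lower). With each DMSO pair summed to 1 library, only the calls of Krt7 and Krt8 at D12 and of Krt7 and Krt17 at D18 were kept. The median log2 change of the 22 was -0.22 at D4, -0.54 at D9, -0.61 at D12, -0.27 at D18 and 0.10 at D28, beside 0.00 to 0.03 over all genes.

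Krt7, the type II keratin of glandular and ductal epithelia, was lower at 4 of the 5 days. In the order DMSO replicate 1, DMSO replicate 2, 10 nM and 100 nM, its FPKM was 5.04, 5.20, 3.56 and 3.08 at D4 and 37.92, 35.44, 18.42 and 21.79 at D9. At D12 it was 33.11, 32.55, 21.67 and 17.70, and at D18 36.15, 38.04, 22.34 and 21.17. At D28 it was 93.98, 97.94, 69.43 and 57.61. Both TBBPA libraries were below both DMSO libraries on every day, with no overlap. The log2 change was -0.62 ± 0.17 at D4 (edgeR adjusted p = 0.129), -0.86 ± 0.11 at D9 (adjusted p = 0.000135), -0.71 ± 0.11 at D12 (7.64e-05), -0.75 ± 0.11 at D18 (8.96e-05) and -0.57 ± 0.10 at D28 (0.00141). A difference between the days was not shown (adjusted p = 0.598).

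Krt19, the smallest keratin and a type I partner in simple epithelia, had FPKM of 24.48, 24.06, 22.95 and 18.58 at D4, 84.59, 85.05, 63.78 and 65.82 at D9, and 81.29, 76.46, 55.96 and 47.86 at D12, in the same order. At D18 it had 88.48, 82.05, 70.39 and 59.68 FPKM, and at D28 250.58, 244.96, 214.74 and 189.32 FPKM. Here too both TBBPA libraries lay below both DMSO libraries on all 5 days. The change passed at D12 (log2 -0.60 ± 0.11) and at D18 (log2 -0.41 ± 0.11). The D18 call was lost without either DMSO library or without the 100 nM library of that day. Krt17 was the third member to lie lower in both TBBPA libraries on all 5 days. Of 15560 genes with an FPKM of at least 0.5 in 2 libraries, 1.24% did so.

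Krt8 and Krt18 moved together. Krt8 had FPKM of 338.50, 324.10, 224.54 and 199.35 at D12, and Krt18 456.74, 441.98, 301.64 and 265.39. Both TBBPA libraries were far below both DMSO libraries. The log2 change was -0.62 ± 0.09 for Krt8 and -0.64 ± 0.12 for Krt18, and both passed (edgeR adjusted p = 2.58e-05 and 0.00112). At D9 the values were 406.38, 404.04, 319.01 and 330.66 for Krt8 and 494.14, 515.48, 396.83 and 394.69 for Krt18. The D9 changes of -0.32 ± 0.08 and -0.35 ± 0.12 did not pass (adjusted p = 0.0533 and 0.174). At D28 the order turned. Krt8 had 231.69, 239.24, 253.01 and 269.33 FPKM and Krt18 260.64, 265.78, 290.57 and 347.79 FPKM, so that both TBBPA libraries were above both DMSO libraries. These changes, 0.18 ± 0.09 and 0.31 ± 0.12, did not pass on their own (adjusted p = 0.235 and 0.142).

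The TBBPA effect differed between the days for 3 of 22 keratins, a share near the 10.4% of all genes. These were Krt8 (edgeR adjusted p = 0.00182), Krt18 (0.0132) and Krt80 (0.0357). The Krt80 call was lost in 17 of 26 alternatives, that of Krt18 without the first D28 DMSO library, and all 3 with summed DMSO pairs. Krt80, a type II keratin found near desmosomes, had FPKM of 0.80, 1.10, 0.40 and 0.19 at D18 and 7.58, 9.12, 9.29 and 7.17 at D28. Its change was -1.52 ± 0.33 at D18, which passed, and 0.04 ± 0.18 at D28. The D18 call was lost without the second DMSO or the 100 nM library of that day.

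Krt20, a keratin of gut and bladder surface cells, had 4.45, 4.31, 2.56 and 2.37 FPKM at D12, with no overlap between the groups. It was lower by 0.80 ± 0.20 on the log2 scale there, a call lost without the 100 nM library. At D28 it had 6.77, 6.82, 5.87 and 4.17 FPKM (log2 -0.41 ± 0.18), which did not pass. Krt42 was also called lower at D12, from 1.11, 0.83, 0.45 and 0.45 FPKM (log2 -1.07 ± 0.37, edgeR adjusted p = 0.0442). That call was lost in DESeq2 and without any 1 of the 4 libraries.

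**Figure D4:**
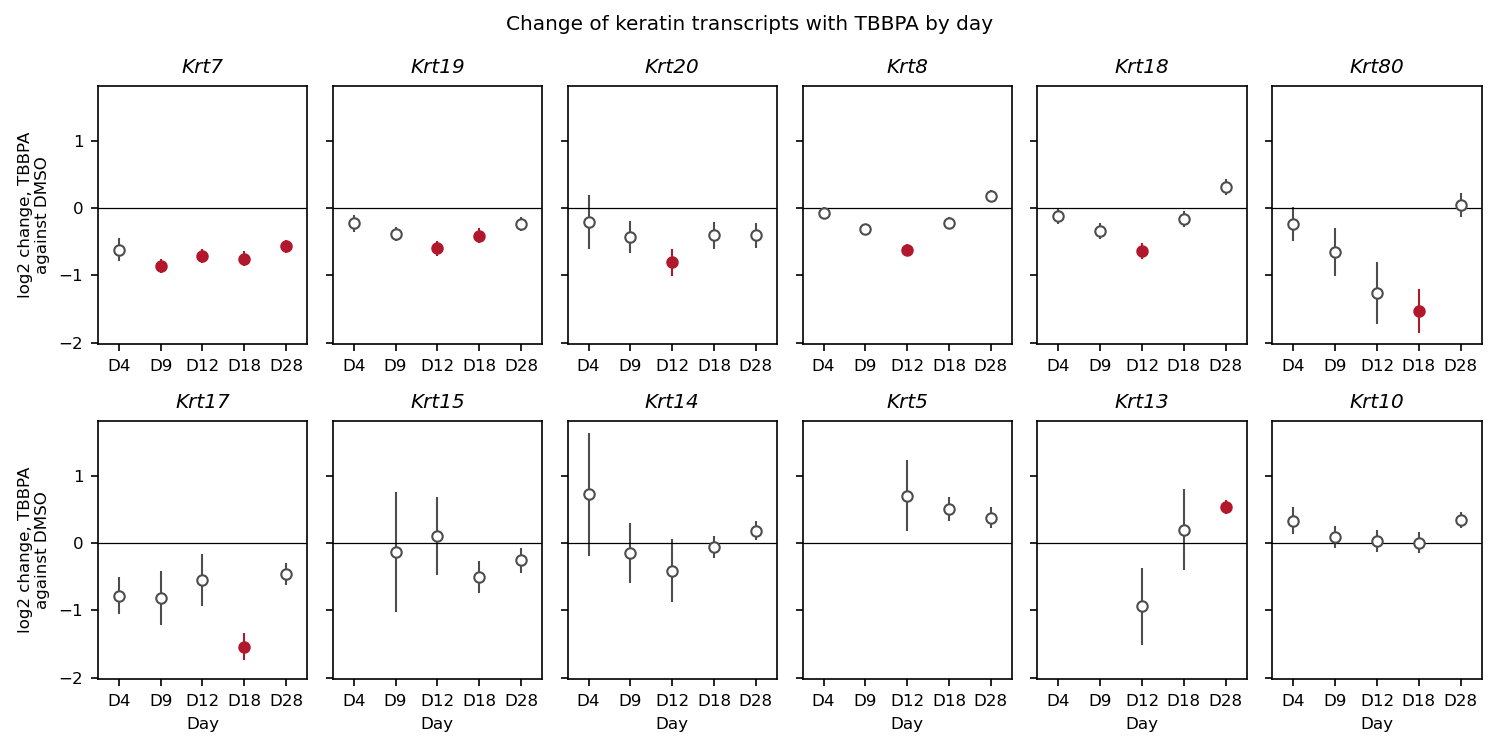
Log2 change with TBBPA (10 nM and 100 nM libraries together, n = 2) against DMSO (n = 2) by day for 12 keratins, with bars for the SE from the edgeR fit; filled red points passed at an adjusted p under 0.05, and points with an SE over 1 are left out. Krt7 was below 0 on all 5 days, Krt8 and Krt18 fell below 0 most at D12 and stood above 0 at D28, and Krt13 was higher at D28.

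Among the stratified keratins, TBBPA libraries did not move one way. Krt17 had FPKM of 9.43, 8.45, 3.90 and 2.14 at D18, with both TBBPA libraries well below the DMSO pair, and was 2.91-fold lower (log2 -1.54 ± 0.20, edgeR adjusted p = 3.13e-05). At D28 it had 27.23, 27.15, 19.50 and 19.13 FPKM (log2 -0.46 ± 0.16, adjusted p = 0.0881). Krt5 ran the other way. It had 23.65, 23.47, 39.17 and 26.69 FPKM at D18 and 97.37, 101.33, 115.90 and 136.29 FPKM at D28, with both TBBPA libraries above both DMSO libraries on both days. The single-day changes, 0.51 ± 0.17 and 0.37 ± 0.16, did not pass (adjusted p = 0.0839 and 0.191). Krt14, the partner of Krt5, had 13.42, 11.50, 14.56 and 9.33 FPKM at D18 and 53.94, 56.26, 54.34 and 68.40 FPKM at D28, and on both days the groups overlapped.

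Krt15 had 21.95, 21.28, 20.13 and 9.77 FPKM at D18 and 254.70, 259.86, 235.80 and 184.76 FPKM at D28. On both days the 100 nM library was the lowest of the 4 by a clear margin. Krt13, the mucosal type I keratin, was the only keratin called higher at a single day. It had 40.18, 40.19, 57.84 and 56.47 FPKM at D28, so that both TBBPA libraries were above the DMSO pair (log2 0.54 ± 0.10, edgeR adjusted p = 0.00340). The call was lost without either DMSO library of that day. Its partner Krt4 had 79.69, 87.71, 84.69 and 57.68 FPKM (log2 -0.20 ± 0.19), and only the 100 nM library was below the DMSO pair. Krt10 had 18.21, 17.49, 23.40 and 21.16 FPKM (log2 0.34 ± 0.12, adjusted p = 0.0861) and Krt1 8.51, 8.83, 10.80 and 8.43 FPKM (log2 0.18 ± 0.17), neither of which passed.

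Over the 5 days, with the day as a factor, 8 of 17 keratins tested passed with both doses together, 1 higher and 7 lower, against 22.9% of all genes (12.1% higher, 10.8% lower). Lower were Krt17 (log2 -0.86 ± 0.14), Krt7 (-0.71 ± 0.05), Krt42 (-0.70 ± 0.19), Krt20 (-0.51 ± 0.08), Krt19 (-0.38 ± 0.04), Krt15 (-0.36 ± 0.09) and Krt8 (-0.21 ± 0.07). Krt5 was higher (0.43 ± 0.11). The median log2 change of the 17 was -0.27, beside 0.01 over all genes. The Krt8 call was lost in 14 of 26 alternatives, and the Krt5 call in 4 of 26, among them DESeq2, limma and the fit without the 100 nM library of D28. The Krt15 call was lost in limma, and those of Krt5, Krt8 and Krt15 with summed DMSO pairs.

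The 10 nM libraries alone gave 6 of 16 keratins (1 higher, 5 lower), against 14% of all genes (7.58% higher, 6.44% lower). The 100 nM libraries gave 7 of 15 (1 higher, 6 lower), against 15.6% (7.71% higher, 7.9% lower). Both comparisons use the same 10 DMSO libraries. Krt7 was lower by 0.65 ± 0.06 at 10 nM and 0.77 ± 0.04 at 100 nM on the log2 scale, Krt17 by 0.77 ± 0.11 and 0.90 ± 0.20, Krt19 by 0.29 ± 0.04 and 0.48 ± 0.05, and Krt20 by 0.33 ± 0.10 and 0.68 ± 0.10. Krt5 was higher by 0.53 ± 0.10 and 0.31 ± 0.09. Its 10 nM call was lost without the D18 10 nM library and with summed DMSO pairs (log2 0.30 to 0.80 over the alternatives). At 100 nM the call was lost in 11 of 21 alternatives and the direction turned in DESeq2. Krt42 was called at 10 nM (-0.78 ± 0.24), and Krt15 (-0.65 ± 0.12) and Krt4 (-0.72 ± 0.22) at 100 nM. At 10 nM, Krt15 stood at -0.08 ± 0.06 and Krt4 at -0.06 ± 0.12. The calls of Krt20 and Krt42 at 10 nM were lost in 11 and 12 of 21 alternatives, and that of Krt4 at 100 nM in 14 of 21. The Krt15 call at 100 nM was lost in limma and with summed DMSO pairs.

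A difference between the doses was not called for any of the 17 keratins, nor for any of 15521 genes (0%). The unadjusted p was under 0.05 for 6 of the 17 keratins and for 6.42% of all genes, and DESeq2 and limma also called 0 keratins. The largest difference with a small error was that of Krt15, lower by 0.57 ± 0.12 at 100 nM than at 10 nM (edgeR adjusted p = 0.386). For Krt7 the difference was -0.13 ± 0.07 and for Krt18 0.01 ± 0.12.

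The composition of the keratin set was set beside its size. The keratin sum at D12 was 540 to 614 FPKM with TBBPA against 888 to 923 with DMSO, while simple keratins were 98.7% to 98.8% of it against 99.1%. At D28 the sums overlapped, 1453 to 1470 with TBBPA and 1454 to 1487 with DMSO, as did the shares of the simple class, 57.8% to 60.6% and 58.5% to 58.9%.

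Genes of the structures that hold keratin filaments were counted in the same fits. Of 13 desmosome genes tested, 10 rose and 0 fell from D18 to D28, against 24.9% and 28.1% of all genes, among them Pkp1 (log2 2.61), Dsg3 (4.23), Perp (0.82) and Jup (0.68), a plaque protein. With TBBPA, 0 of the 13 were higher and 7 lower at D12, against 11.9% and 9.19% of all genes, with a median log2 change of -0.58 beside 0.03 over all genes. Dsg2 (log2 -0.79 ± 0.07), Dsc2 (-0.76 ± 0.12), Dsp (-0.69 ± 0.07), the linker between desmosome and keratin, and Jup (-0.58 ± 0.08) were among the 7. At D18, 5 of the 13 were lower and 0 higher, against 4.56% and 5.96% of all genes. At D28, 2 were lower, Dsc2 (-0.50) and Perp (-0.28), against 3.44% of all genes. The desmosome genes thus had no call in the higher direction with TBBPA at these 3 days.

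Of 9 plakin and hemidesmosome genes, 8 rose and 0 fell from D18 to D28 (24.9% and 28.1% of all genes), among them Itgb4 (log2 1.72), the hemidesmosome integrin that binds keratin linkers, and Col17a1 (log2 3.41). With TBBPA, 5 of 9 were lower at D12, 4 at D18 and 2 at D28, against 9.19%, 4.56% and 3.44% of all genes, and none was higher on these days. Itgb4 was lower by 0.42 ± 0.09, 0.55 ± 0.09 and 0.50 ± 0.08 on the 3 days. Over the 5 days 8 of 9 were lower, against 10.8% of all genes, with a median of -0.25 beside 0.01 over all genes.

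Of 18 epithelial transcription factors, 7 were lower and 1 higher with TBBPA at D9, against 0.964% and 1.37% of all genes. At D12, 10 were lower and 1 higher, against 9.19% and 11.9%. At D18, 4 were lower and 1 higher, against 4.56% and 5.96%, and at D28 4 were lower and 4 higher, against 3.44% and 3.65%. The summed FPKM of the list was 110 to 123 with TBBPA and 146 to 148 with DMSO at D12. The sums overlapped at D18, and at D28 they stood at 238 to 254 with TBBPA, above 228.81 to 229.81 with DMSO. Trp63, the master regulator of stratified epithelium, rose by 6.18 ± 0.33 from D4 to D9 in DMSO libraries, while Krt5 was still at 0.18 FPKM or less at D9. It was lower with TBBPA at D9 (log2 -1.15 ± 0.25) and at D28 (-0.63 ± 0.19), where neither Krt5 nor Krt14 passed. At D28 its FPKM was 6.54 and 6.32 with DMSO, 4.28 at 10 nM and 3.34 at 100 nM. Grhl2, a regulator of epithelial junction genes, was lower at D9 (-0.69 ± 0.13). Elf3 (-0.72 ± 0.09) and Tfap2c (-0.66 ± 0.12) were lower at D12. The changes with TBBPA named here are all lower calls. The 1 higher call at each of D9, D12 and D18 and the 4 at D28 are counted but not named.

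Markers of several cell types moved in the same comparisons, among them types that carry keratins. At D12, 7 of 7 simple epithelium markers (Epcam, Cdh1 and others) were lower with TBBPA, against 9.19% of all genes, and their summed FPKM was 323 to 353 against 503 to 514 with DMSO. Visceral endoderm markers, with 5 of 8 lower, summed to 244 to 291 against 517 to 519. Trophoblast markers, with 3 of 8 lower, summed to 29.6 to 34.9 against 56.4 to 58.7. None of these markers was at 0 in any D12 library. Gut epithelium markers, with 1 of 7 lower, summed to 9.31 to 9.67 against 13.8 to 15.1. Tfap2c, Gata3 and Cdx2 of the trophoblast list were also counted among the transcription factors, and Cdx2 also among the gut markers. Markers of fibroblasts, which are not epithelial, were also lower, 4 of 5 at D12, with sums of 198 to 234 against 332 to 342. At D18, 5 of 5 were lower, against 4.56% of all genes, with sums of 347 to 520 against 740 to 774. At D28 the simple epithelium sums overlapped, 530 to 668 with TBBPA and 543 to 552 with DMSO. There 1 marker was higher and 0 lower, against 3.65% and 3.44% of all genes. Visceral endoderm sums with TBBPA lay on both sides of the DMSO values at D18, 238 to 427 against 266 to 267. At D28 they were higher, 260 to 274 against 217 to 219, while trophoblast and gut sums overlapped. The part of these cell types in the keratin values was not tested.

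For the stratified keratins the markers also differed among themselves. At D28, 3 of 7 stratified epithelium markers were lower with TBBPA and 0 higher, against 3.44% and 3.65% of all genes on that day, with sums of 90.9 to 101 against 120 to 124. All 7 also belong to the desmosome, hemidesmosome or transcription factor lists counted above, so they are not a separate set of genes. Of 10 cornified envelope markers 2 were higher, Lor (log2 0.57) and Sbsn (0.40), and 0 lower, with sums of 282 to 319 against 224 to 236. Mesothelium, which carries Krt7, Krt8, Krt18 and Krt19, had 2 of 5 markers lower, Msln (log2 -0.69 ± 0.14) and Upk1b (-0.62 ± 0.13), with sums of 124 to 176 against 236 to 241. Of its keratins, Krt7 and Krt19 lay lower in both TBBPA libraries at D28, and Krt8 and Krt18 higher in both. Mucous and secretory markers had 3 of 6 tested lower, with sums of 12.4 to 24.0 against 37.5 to 39.4. Fibroblast markers had 3 of 5 lower, with sums of 1327 to 1461 against 2118 to 2171. The part of these cell types in the values of Krt4, Krt7, Krt8, Krt13, Krt18 and Krt19 at D28 was not tested.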

How the data were processed

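RNA of 22 libraries was read from 1 table per library. Expected counts per gene and FPKM were deposited by the authors, per the file headers, and genes that a table does not list were set to 0. Reads were aligned with HISAT and Bowtie2 on GRCm38.p5, per the submitters' processing notes. The counting tool, its version and the use of strand are not given in the sources used here, so overlapping and near-identical genes are uncertain.

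Expected counts were rounded and tested with edgeR 4.0.16 (R 4.3.3) by quasi-likelihood F tests, with TMM scaling and filterByExpr (minimum count 10, minimum total 15). Benjamini-Hochberg adjustment covered every gene in a fit, and an adjusted p under 0.05 was called. Control steps came from 1 fit of 12 libraries (16203 genes, 6 residual degrees of freedom), TBBPA effects by day from 1 fit of 22 libraries (16383 genes, 11 degrees of freedom), and effects over days from fits with the day as a factor. An SE is the absolute log2 change over the square root of its F statistic. Levels of genes are compared on FPKM.

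Every keratin above the FPKM minimum was named, with up to 8 calls in each direction per comparison and up to 4 members of each other list. Members and lists were chosen with earlier results of these data known. Alternatives were DESeq2 1.42.0, RLE scaling, library size alone, no filter, limma 3.58.1 on log2(FPKM + 1), a replicate block, summed DMSO pairs and leaving out each library. Scripts were tested on simulated data.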

Additional observations from a re-analysis of the deposited data

Results flagged for a closer look

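The change with TBBPA differed between the 5 days for 3 of 22 keratins by a joint edgeR test with Benjamini-Hochberg adjustment. The share over all genes tested was 10.4%, so the keratin count was near that of genes at large. For Krt8 the adjusted p was 0.00182, and it stayed under 0.05 in 25 of 26 alternatives. The exception was the fit with each DMSO pair summed to 1 library (adjusted p = 0.382). For Krt18 the adjusted p was 0.0132. It passed in 24 of 26 alternatives and was lost with summed DMSO pairs (0.617) and without the first D28 DMSO library. For Krt80 the adjusted p was 0.0357, and it passed in 9 of 26 alternatives, with a range of 0.0170 to 0.552. Krt8 and Krt18 lay lower in both TBBPA libraries at D4, D9, D12 and D18 and higher in both at D28.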

How the results depend on the processing

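Of 94 calls on single keratins, 57 in control steps and 37 with TBBPA, the alternatives gave 1257 re-tests, of which 1112 kept the call, 144 lost it and 1 reversed. The reversal was Krt5 at 100 nM over the days, at -0.0233 in DESeq2. RLE scaling and library size alone lost none of the calls. DESeq2 gave 1 keratin at D4 and 3 at D9, and library size alone 2 at D9. With each DMSO pair summed to 1 library, 14 of the 37 TBBPA calls were kept and 23 lost. The counts were then 0 at D9, 2 at D12, 2 at D18, 0 at D28, 0 for the difference between days, 3 at 10 nM, 2 at 100 nM and 5 for both doses; the cause was not tested beyond the fewer samples. Leaving out each library in turn gave 11 to 14 keratins for ES to D4, 9 to 11 for D4 to D9, 4 for D9 to D12, 9 to 11 for D12 to D18 and 17 for D18 to D28. With TBBPA it gave 0 at D4, 1 at D9, 4 to 5 at D12, 2 to 7 at D18 (2 without the second DMSO and 7 without the 10 nM library), 1 to 2 at D28 (1 without either DMSO library) and 1 to 5 for the difference between days (1 without the first D28 DMSO and 5 without the D18 10 nM library). The same gave 4 to 9 at 10 nM, 5 to 11 at 100 nM (11 without the D28 library of that dose) and 7 to 11 for both doses.

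Replicate numbers did not pair the libraries: over 15 pairs of groups the correlation of deviations was -0.033 to 0.054. With the replicate block the control steps gave 13, 11, 5, 13 and 17 keratins, the same counts as without it, and no call changed. Members with under about 10 counts, such as Krt1, Krt13 and Krt77 in ES and DMSO libraries up to D18, are limited by depth. The limit includes the D18 baseline of their rises to D28, where Krt77 had 0 counts in both DMSO libraries.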

Other observations

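Intermediate filament genes other than keratins were counted in the same fits. With TBBPA at D12, 4 of 16 were higher and 1 lower, against 11.9% and 9.19% of all genes. The 4 were the neuronal filament genes Ina (log2 1.02 ± 0.11), Nefl (0.88 ± 0.10) and Nefm (1.09 ± 0.19), and Nes (0.67 ± 0.08), the filament of neural progenitors. Neuron markers rose in 4 of 4 cases at D12, with summed FPKM of 197 to 205 against 94.8 to 100 with DMSO. At D28, Nefl (0.77 ± 0.14) and Ina (0.64 ± 0.16) were higher and Des, the muscle filament, was lower (-0.81 ± 0.15). Over the 5 days 7 of 15 were higher and 3 lower, against 12.1% and 10.8% of all genes. In the DMSO libraries Gfap, the filament of astrocytes, rose by 6.13 ± 0.11 from D18 to D28, while Ina fell by 3.64 ± 0.13 and Nefl by 2.23 ± 0.12.

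At D28 the FPKM of Krt4 over that of Krt13 was 1.98 to 2.18 in the DMSO libraries, 1.46 at 10 nM and 1.02 at 100 nM. This ratio was noticed in the data and was not tested.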
